A study of Mus musculus with 77 samples.

Results

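The D-type cyclins Ccnd1, Ccnd2 and Ccnd3 and the cyclin-dependent kinase (CDK) inhibitors Cdkn1a, Cdkn1b, Cdkn1c, Cdkn2c and Cdkn2d were followed in polysome-associated and total RNA of mouse testes. The 8 genes were listed by name for their place in cell-cycle control, with earlier results of these data known. A gene was represented by its brightest probe set among those that the platform annotation lists with 1 gene. Of the 8, 7 had such a probe set, out of 19938 genes measured in the same way. Cdkn1a had none, because its probe set is listed with a second gene as well, so Cdkn1a has no values among the results below.

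D cyclins bind and activate CDK4 and CDK6, which phosphorylate the retinoblastoma protein and its relatives and so release E2F factors for entry into S phase. Inhibitors of the INK4 family, among them Cdkn2c (p18) and Cdkn2d (p19), bind CDK4 and CDK6, whereas the CIP/KIP family, among them Cdkn1b (p27) and Cdkn1c (p57), acts on cyclin-CDK complexes, CDK2 complexes in particular. In the mouse testis Sertoli cells divide until some time after birth and then leave the cell cycle, and p27 is known for its part in that exit. Spermatogonia take up differentiation under retinoic acid (RA), and their Ccnd2 has been linked with that transition.

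The series holds 77 arrays of RiboTag mice, in which a Cre recombinase switches on an epitope-tagged ribosomal protein so that antibody pulldown (IP) recovers the polysome-associated RNA of the cells that expressed the Cre. Stra8-cre:RiboTag mice (FVB/N strain, 16 IP and 23 total RNA arrays) and Ngn3-cre:RiboTag mice (C57BL/6 strain, 4 IP and 4 total RNA arrays) were used for germ cells. Amh-cre:RiboTag mice (FVB/N strain, 16 IP and 14 total RNA arrays) were used for Sertoli cells. All animals, those at time 0 included, had received BDAD, an inhibitor of RA synthesis, for 9 days. Time 0 testes came from animals given BDAD only, and all other testes from animals that were then injected with RA and are labelled 4h, 12h, 24h, 48h, 4d, 6d or 8d. The series title calls the cells neonatal, and the labels give no age in days. The Ngn3 line has times 0 and 4h only, and the Amh line has no total RNA arrays at 4h. A group of 1 line, fraction and time holds 2 arrays, apart from Stra8 total RNA with 4 at time 0, 24h and 48h and 3 at 4h. No animal without RA was collected at the later times, so RA, the injection, age and the end of BDAD cannot be told apart. Strain and Cre line cannot be told apart for Ngn3. Each tag follows the activity of its own promoter, so it reports on the cells in which that promoter was or had been active. The labels do not say that the arrays of a group came from separate animals, so p-values measure the spread between these arrays, which may be technical.

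Values are log2 of the authors' normalised intensities, and a difference of 1 on that scale is a 2-fold change. Statements on whether sets of arrays overlapped describe the gene named, and the share of all genes without overlap was not counted. The median intensity of an array lay between 252.6 and 300.5, and arrays of 1 group correlated at 0.958 to 0.999 across genes (median 0.995). The marker lists matched the labelled fractions: all 11 germ cell markers were higher in Stra8 IP than in Stra8 total RNA and all 14 Sertoli cell markers were lower, while in Amh IP the 14 Sertoli markers were higher than in total RNA and the 11 germ cell markers lower. The tests described below called 71.3% of all genes in Stra8 and 74.1% in Amh, in either direction. The mean over the Sertoli markers was 9.11 to 11.09 in Stra8 IP arrays and 12.44 to 12.65 in Amh IP arrays, and the germ cell mean was 11.35 to 11.91 in Stra8 IP and 7.72 to 9.11 in Amh IP. Some arrays stood apart or went against their labels. Rarb, a direct RA target, was 7.16 to 7.18 in the Amh IP arrays labelled 4h and 8.56 to 8.58 in those labelled 4d, while in Stra8 IP it was 9.21 to 9.28 at 4h and 7.05 to 7.18 at 4d. In Amh total RNA Rarb was 8.82 to 8.88 in the arrays labelled 4d, against 6.84 to 6.90 at time 0, and in Stra8 total RNA it was 6.97 to 7.29 at 4d. Of the Stra8 total RNA arrays labelled 4h, replicates 2 and 3 were nearest to the 4d group and replicate 1 to the 24h group. That replicate and replicates 3 and 4 of Stra8 total RNA at 24h had the narrowest range of signal. The fit shares 1 estimate of spread over all arrays, so leaving these out can move calls in other groups. Some, but not all, of the calls it moved are given below.

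Averaged over the time course, Ccnd1 and Cdkn1c had higher levels in the germ cell fractions than in total RNA, and Ccnd3 was far lower in the Sertoli cell fraction. Cdkn1b and Cdkn2d were on average higher in the Sertoli cell fraction and lower in the germ cell fractions, though not at every time. In Stra8 IP against total RNA 6 of the 7 genes passed the test (3 higher and 3 lower; adjusted p under 0.05 in limma, Benjamini-Hochberg over all genes). That test called 71.3% of all genes, so the share among the 7 says little by itself. With a 2-fold difference required as well, 0 of 7 were called, against 9.21% of all genes. In Ngn3 IP against total RNA 6 of 7 passed (2 higher and 4 lower; 55.7% of all genes), 2 of them with a 2-fold difference as well (12.9% of all genes). In Amh IP against total RNA 6 of 7 passed (2 higher and 4 lower; 74.1% of all genes), 3 of them with a 2-fold difference (5.04% of all genes). Median differences over the 7 genes were -0.01, -0.27 and -0.17 in Stra8, Ngn3 and Amh, beside 0.04, 0.05 and 0.12 over all genes. In bulk RNA of this kind fewer cells of a type and less RNA per cell cannot be told apart. Of the genes called in Amh IP against total RNA 68.8% were higher, and 80.1% when arrays were centred on their medians, which moved the median of all genes to 0.25.

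Among the D cyclins, Ccnd1 was higher than total RNA in both germ cell fractions and lower in the Sertoli cell fraction. Its level had a lowest, median and highest value of 10.94, 11.72 and 12.11 over the 16 Stra8 IP arrays, against 9.71, 10.45 and 11.73 over the 23 Stra8 total RNA arrays. In Amh IP the 3 values were 8.51, 8.95 and 11.21, against 9.44, 10.23 and 11.63 in Amh total RNA. Most Stra8 IP arrays thus lay above the median of whole testis and most Amh IP arrays below it, with overlap at the ends of the ranges. Ccnd1 was 0.97 ± 0.10 higher in Stra8 IP than in total RNA (SE on the log2 scale, adjusted p = 8.76e-13), 1.05 ± 0.21 higher in Ngn3 IP (adjusted p = 1.95e-05) and -1.23 ± 0.11 in Amh IP (2.34-fold lower, adjusted p = 4.42e-14). Ccnd3 lay between 8.51 and 9.72 in Amh IP, with a median of 9.02, and between 10.19 and 11.01 in Amh total RNA, with a median of 10.64. The 2 sets of arrays did not overlap, and the difference was -1.55 ± 0.04, or 2.92-fold lower in IP (adjusted p = 3.58e-36). In the germ cell fractions Ccnd3 did not pass the test, at -0.01 ± 0.03 in Stra8 (adjusted p = 0.741) and -0.06 ± 0.07 in Ngn3 (adjusted p = 0.531). Ccnd2, the D cyclin best known from spermatogonia and gonadal somatic cells, differed less and not alike in the 2 germ cell lines, at 0.28 ± 0.06 in Stra8 (adjusted p = 5.14e-05) and -0.48 ± 0.13 in Ngn3 (adjusted p = 0.0012). Its difference of -0.17 ± 0.07 in Amh (adjusted p = 0.0214) was lost when single arrays were left out, with -0.11 without Amh total RNA at 6d replicate 2, -0.13 without Amh IP at 6d replicate 1 and -0.15 without Amh IP at 8d replicate 1. It was -0.05 (adjusted p = 0.529) when arrays were centred on their medians.

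Among the inhibitors, Cdkn2d had the clearest level in the Sertoli cell fraction. The 16 Amh IP arrays ran between 9.33 and 10.31, with a median of 9.70, and the 14 Amh total RNA arrays between 8.42 and 9.31, with a median of 8.63. No IP array fell within the range of total RNA, and the difference was 1.03 ± 0.04, or 2.04-fold (adjusted p = 8.13e-26). Cdkn2d was on average lower in the germ cell fractions, with differences of -0.12 ± 0.04 in Stra8 IP (adjusted p = 0.00507, and -0.08 and adjusted p = 0.0597 with median centring) and -0.33 ± 0.08 in Ngn3 IP (adjusted p = 0.00059). In Stra8 the Cdkn2d difference changed sign, with -0.28 ± 0.10 at time 0 and 0.32 ± 0.12 at 6d (adjusted p = 0.0182 and 0.0246). It did not pass at 4h, 24h, 4d or 8d. Cdkn1b, whose product p27 inhibits CDK2 complexes, had a median of 9.96 in Stra8 IP (9.27 to 10.74), against 10.74 in Stra8 total RNA (10.52 to 11.13), and was lower in IP (-0.80 ± 0.03, adjusted p = 6.16e-30). It had a median of 11.10 in Amh IP (10.63 to 11.65), against 10.79 in Amh total RNA (10.5 to 11.09), and was 0.40 ± 0.03 higher in IP (adjusted p = 9.64e-16). In Ngn3 IP it was -0.27 ± 0.06 (adjusted p = 0.000146). A second, dimmer Cdkn1b probe set gave the same sign in Stra8 (-0.51) and Amh (0.99) but 0.10 in Ngn3 (adjusted p = 0.541). At time 0 alone the brighter set passed neither in Stra8 (-0.10 ± 0.07, adjusted p = 0.269) nor in Amh (0.07 ± 0.09, adjusted p = 0.577).

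The other CIP/KIP inhibitor, Cdkn1c, ran opposite to Cdkn1b. Its median was 9.33 in Stra8 IP (8.67 to 9.79), against 8.51 in Stra8 total RNA (8.19 to 8.68), so that only the lowest IP array touched the range of total RNA. The difference was 0.82 ± 0.03 in Stra8 (adjusted p = 4.09e-27) and 0.63 ± 0.07 in Ngn3 (adjusted p = 1.49e-10). In Amh IP it was -0.21 ± 0.04 (adjusted p = 4.46e-06), and -0.06 with quantile normalisation (adjusted p = 0.193). At 6d alone the Amh difference was 0.27 ± 0.10, with Cdkn1c higher in IP (limma adjusted p = 0.0326). Cdkn2c was lower in both germ cell fractions, with differences of -0.33 ± 0.06 in Stra8 (adjusted p = 9.36e-06) and -1.39 ± 0.14 in Ngn3 (2.62-fold, adjusted p = 1.13e-12). The Ngn3 arrays cover times 0 and 4h only, and at time 0 the Stra8 difference was -1.26. At 6d the Stra8 difference was 0.49 ± 0.19, with Cdkn2c higher in IP (adjusted p = 0.033). In Amh IP the average difference of Cdkn2c was -0.15 ± 0.07 (adjusted p = 0.0677), with opposite signs between times. Cdkn2c was higher in IP at 12h, by 0.53 ± 0.19 (limma adjusted p = 0.0253). At 6d and 8d it was lower, with -1.17 ± 0.19 and -0.57 ± 0.19 (limma adjusted p = 1.91e-06 and 0.0128). With the replicate number as a block, which the check of the arrays bore out for this pair of fractions, the average difference had an adjusted p of 0.00225. With the Amh arrays of labels 4h and 4d left out it was -0.19 (adjusted p = 0.036), and without the 3 arrays of narrowest range -0.15 (adjusted p = 0.027).

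**Figure D1:**
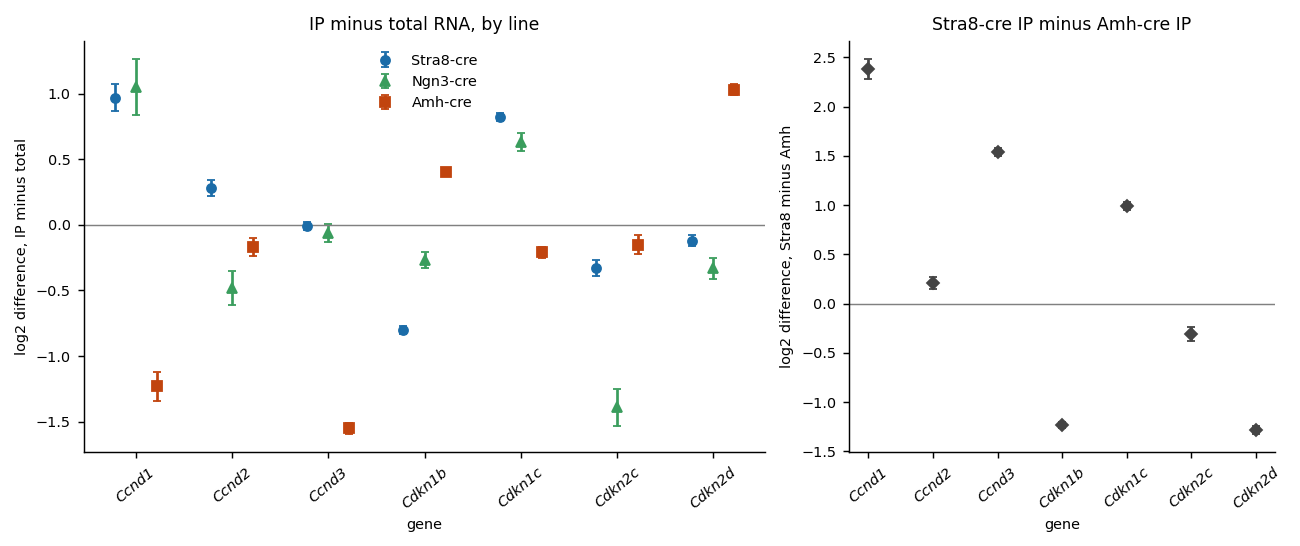
Log2 difference between IP and total RNA for the 7 genes in the Stra8, Ngn3 and Amh lines (left) and between Stra8 IP and Amh IP (right), averaged over times; points are differences and bars their standard errors from the fit over all 77 arrays. Ccnd1 lies at 0.97 and 1.05 in the germ cell lines and at -1.23 in the Amh line, and Cdkn2d lies at 1.03 in the Amh line and at -0.12 and -0.33 in the Stra8 and Ngn3 lines.

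Set directly against each other, the germ cell and Sertoli cell fractions differed in all 7 genes (4 higher and 3 lower in Stra8 IP), where the test called 66.5% of all genes; 4 of 7 also differed 2-fold, against 16.8% of all genes. Ccnd1 was 2.38 ± 0.10 higher in Stra8 IP than in Amh IP (5.19-fold, adjusted p = 9.35e-27) and Ccnd3 1.54 ± 0.04 higher (2.90-fold, adjusted p = 1.22e-38). Cdkn1b was lower in Stra8 IP (-1.23 ± 0.03, 2.34-fold, adjusted p = 3.01e-37) and so was Cdkn2d (-1.28 ± 0.04, 2.42-fold, adjusted p = 4.37e-32). Cdkn1c was 0.99 ± 0.04 higher in Stra8 IP, Cdkn2c was -0.31 ± 0.07, and Ccnd2 was 0.21 ± 0.06, the last reduced to 0.12 (adjusted p = 0.0975) with median centring. These are means over the times, and Cdkn2c and Ccnd2 changed sign between times. Cdkn2c was -1.55 ± 0.19 at time 0 and 1.58 ± 0.19 at 6d (limma adjusted p = 1.43e-09 and 6.48e-10). Ccnd2 was -1.63 ± 0.18 in arrays labelled 4d and 1.22 ± 0.18 at 6d (adjusted p = 1.13e-10 and 1.21e-07). The median over the 7 genes was 0.21, beside -0.02 over all genes. Of all genes called 49.1% were higher in Stra8 IP, and 34.6% with median centring, where the median of all genes was -0.12. Total RNA of the 2 lines differed in 3 of 7 genes, all lower in Stra8 (18% of all genes called, 52.4% of them higher and 41.9% with median centring; 0 of 7 with a 2-fold difference, against 0.0301%), with differences of -0.22 for Ccnd2, -0.19 for Cdkn2c and -0.17 for Cdkn2d. Ccnd1 was 0.22 ± 0.10 (adjusted p = 0.132), and passed as higher in Stra8 without the Stra8 total RNA arrays labelled 4h (adjusted p = 0.0106), without the 3 arrays of narrowest range (adjusted p = 0.00819) and in a fit of the compared groups (adjusted p = 0.0159). None of the 3 passed with the Amh arrays of labels 4h and 4d left out (-0.09, -0.16 and -0.07), Ccnd2 was not called without Amh total RNA at 6d replicate 2 (-0.16), and the Cdkn2c call was lost in 22 of the fits that left out 1 array (-0.20 to -0.16, adjusted p up to 0.113).

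The partners of these genes at the G1/S step, a list of 27 other cyclins, CDKs, E2F factors, retinoblastoma relatives and regulators, were compared in the same way. Of the 27, 19 were higher and 6 lower in Stra8 IP than in Amh IP (66.5% of all genes called), with a median difference of 0.61 over the list and -0.02 over all genes. Cyclin A2 (Ccna2, 2.07 ± 0.04) and cyclin E2 (Ccne2, 2.08 ± 0.12) and the repressor E2F E2f8 (1.78 ± 0.09) were among the higher ones, and Rbl2, which encodes the retinoblastoma relative p130 of resting cells, was lower (-2.39 ± 0.06, 5.25-fold). Against total RNA, Rbl2 was 0.87 ± 0.06 higher in Amh IP and -1.59 ± 0.05 in Stra8 IP. In all, 21 partners were higher and 3 lower in Stra8 IP than in total RNA (71.3% of all genes called), 13 higher and 4 lower in Ngn3 IP (55.7%), and 7 higher and 13 lower in Amh IP (74.1%). The 20 of 27 called in Amh IP are a share near that of all genes. All 19 measured markers of dividing cells were higher in Stra8 IP than in Amh IP, with a median difference of 2.19.

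Averaged over times, Cdkn1b and Cdkn2d were the pair higher in the Sertoli cell fraction than in total RNA and lower in the germ cell fractions. The promoter sequences of both are shown. Each is the 250 bases before the annotated transcription start, from RefSeq on build GRCm38.p6, written 5′ to 3′ on the gene's strand (5 of the 8 genes have a promoter entry). Capitals mark matches on either strand to 4 motifs: GGGCGG (GC box), CCAAT, TTTNNCGC (E2F site) and AGGTCA (nuclear receptor half-site). No matches overlapped in these windows. The Cdkn1b window is chr6:134920151-134920400 on the plus strand and the Cdkn2d window is chr9:21291210-21291459 on the minus strand.
Cdkn1b: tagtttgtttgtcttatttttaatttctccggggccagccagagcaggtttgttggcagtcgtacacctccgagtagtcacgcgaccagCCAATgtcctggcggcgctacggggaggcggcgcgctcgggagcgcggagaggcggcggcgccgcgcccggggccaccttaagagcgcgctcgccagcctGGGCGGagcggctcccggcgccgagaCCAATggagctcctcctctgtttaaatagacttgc
Cdkn2d: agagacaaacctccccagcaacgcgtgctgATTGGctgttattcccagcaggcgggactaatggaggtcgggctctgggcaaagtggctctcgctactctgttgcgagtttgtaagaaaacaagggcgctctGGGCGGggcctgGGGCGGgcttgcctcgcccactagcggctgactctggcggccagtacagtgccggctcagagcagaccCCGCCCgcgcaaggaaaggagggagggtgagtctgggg
Both windows hold GC boxes and CCAAT, 1 and 2 matches in Cdkn1b and 3 and 1 in Cdkn2d. Over the same 250 bases of all 32851 promoters listed, 32.7% held GGGCGG, 33.8% CCAAT, 4.28% TTTNNCGC and 14.0% AGGTCA. Neither window held the letters of the E2F or half-site motif. A Ccnd3 window, chr17:47593217-47593466, also held a GC box and CCAAT, with 1 match each, and windows of Cdkn1a and Cdkn2c held GC boxes.

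Over the RA time course in Stra8 IP, Cdkn1b fell early and stayed low, Ccnd3 and Ccnd2 fell late, and the 2 INK4 inhibitors Cdkn2c and Cdkn2d were highest at 6d. Tested over the 7 later times together, with limma's F test, which has no direction, all 7 genes changed (57.8% of all genes; 4 of 7 with a change of at least 2-fold at some time, against 10.8%). Taken time by time against time 0, the genes called numbered 2 of 7 at 4h (1.65% of all genes), 1 at 12h (4.59%), 2 at 24h (6.47%), 3 at 48h (11.9%), 4 at 4d (22.3%), 4 at 6d (33.4%) and 6 at 8d (34.3%). In total 22 of 49 pairs of gene and time were called, 7 higher and 15 lower, against 16.4% of pairs over all genes, and 7 of 49 with a 2-fold change as well, against 2.48%. The median difference over the 49 pairs was -0.07 and that over all genes -0.01.

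Cdkn1b had 10.74 and 10.70 in Stra8 IP at time 0, 10.62 and 10.57 at 4h, 10.07 and 9.84 at 12h, 9.97 and 9.95 at 24h, 9.72 and 9.66 at 48h, 10.18 and 10.01 at 4d, 9.27 and 9.35 at 6d, and 9.31 and 9.38 at 8d. Every array from 12h onward lay below both arrays of time 0. The change was -0.76 ± 0.09 at 12h (adjusted p = 1.15e-08), -1.03 ± 0.09 at 48h (adjusted p = 2.63e-12) and -1.41 ± 0.09 at 6d (2.66-fold lower, adjusted p = 2.36e-18). The dimmer Cdkn1b probe set fell at the same times, with changes of -0.76 at 12h, -1.13 at 48h and -1.46 at 6d. In Stra8 total RNA the brighter set stayed between 10.52 and 11.13. Its difference of IP from total RNA was -0.10 at time 0 and -1.43 at 8d. The dimmer set did not stay level in total RNA, with 6.74 and 6.81 at 6d, against 7.75 to 8.07 at time 0. In IP the dimmer set was 6.75 and 6.26 at 6d, so IP and total RNA lay close at that time. At 8d it was 7.76 and 7.73 in total RNA and 6.46 and 6.60 in IP. The mean of the Sertoli cell markers in Stra8 IP was 9.25 at 6d and 9.45 at 8d, against 10.10 at time 0. Of the 14 markers 11 and 8 were lower and 1 and 0 higher (33.4% and 34.3% of all genes called). Their mean was 10.60 at 4d, with 7 of 14 higher (22.3% of all genes called), and 9.80 at 12h, with 3 of 14 lower (4.59%). The part of these markers in the changes of Cdkn1b and of the other genes in Stra8 IP was not tested.

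Ccnd3 had 10.85 and 10.97 in Stra8 IP at time 0, 11.09 and 11.10 at 4h, 10.84 and 10.67 at 12h, 10.63 and 10.64 at 24h, 11.01 and 10.67 at 48h, 10.30 and 10.36 at 4d, 9.88 and 10.13 at 6d, and 9.93 and 10.12 at 8d. The arrays of 4d to 8d all lay below those of earlier times. It fell, with changes of -0.58 ± 0.10 at 4d, -0.90 ± 0.10 at 6d and -0.88 ± 0.10 at 8d (adjusted p = 1.23e-05, 2.29e-10 and 2.68e-10). Ccnd2 had 12.22 and 12.53 at time 0, 12.75 and 12.82 at 4h, 12.82 and 12.80 at 12h, 12.02 and 12.41 at 24h, 11.85 and 11.70 at 48h, 11.34 and 10.90 at 4d, 12.36 and 12.17 at 6d, and 11.42 and 11.14 at 8d. Its course was not even, with 6d back within reach of time 0. It fell, with changes of -1.26 ± 0.18 at 4d (2.39-fold lower, adjusted p = 6.5e-07) and -1.10 ± 0.18 at 8d (adjusted p = 2.56e-06), and differed by -0.11 ± 0.18 at 6d (adjusted p = 0.689). At 48h the call (-0.60 ± 0.18, adjusted p = 0.0217) was lost without replicate 2 of time 0 (-0.45) and without replicate 1 or 2 of 48h (-0.68 and -0.53). Ccnd1 was called in the F test (adjusted p = 0.00771) but at no single time, and was highest at 4d with 12.11 and 12.06, against 11.43 and 11.31 at time 0 (0.72 ± 0.29, adjusted p = 0.0727). The same 0.72 passed without the Stra8 total RNA arrays labelled 4h (adjusted p = 0.00158), without the 3 arrays of narrowest signal range (adjusted p = 0.00101) in a fit of the compared groups only (adjusted p = 0.00628) and with quantile normalisation (0.75, adjusted p = 0.038). In the fit of the compared groups the differences at 24h, 48h and 6d (0.46, 0.46 and 0.40) passed too (adjusted p = 0.0236, 0.0152 and 0.00713). Ccnd3 at 24h (-0.27 ± 0.10, adjusted p = 0.096) passed without the 3 arrays of narrowest range (adjusted p = 0.0421).

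The INK4 inhibitors rose late in Stra8 IP. Cdkn2c had 8.49 and 9.00 at time 0, 8.81 and 8.73 at 4h, 8.82 and 8.55 at 12h, 8.43 and 8.73 at 24h, 8.13 and 7.92 at 48h, 9.05 and 9.30 at 4d, 10.28 and 10.21 at 6d, and 9.68 and 9.66 at 8d. The arrays of 6d and 8d were above all others. Cdkn2c rose by 1.5 ± 0.19 at 6d (2.82-fold, adjusted p = 1.34e-08) and 0.92 ± 0.19 at 8d (adjusted p = 0.00011). At 48h it was called lower (-0.72 ± 0.19, adjusted p = 0.00767), a call lost without replicate 2 of time 0 (-0.47) or replicate 2 of 48h (-0.62). At 4d it was 0.42 ± 0.19 (adjusted p = 0.114), and passed without the 3 arrays of narrowest range (adjusted p = 0.038) or without replicate 2 of time 0 (0.68, adjusted p = 0.0317). Cdkn2d had 8.25 and 8.11 at time 0, 8.64 and 8.64 at 4h, between 7.93 and 8.43 from 12h to 4d, 9.70 and 9.47 at 6d, and 8.66 and 8.56 at 8d. The 6d arrays stood alone at the top. Cdkn2d rose by 1.40 ± 0.12 at 6d (2.64-fold, adjusted p = 1.37e-13) and by 0.43 ± 0.12 at 8d (adjusted p = 0.00307; 0.36 and adjusted p = 0.0602 without replicate 2 of time 0). At 4h it was 0.46 ± 0.12 (adjusted p = 0.0249), and no call remained when either array of time 0 (0.53 and 0.40) or of 4h (0.46 and 0.46) was left out.

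Cdkn1c moved both ways in Stra8 IP. It was 8.67 and 8.76 at 4d and 8.76 and 8.70 at 8d, against 9.42 and 9.11 at time 0, and fell, with changes of -0.55 ± 0.10 and -0.54 ± 0.10 (adjusted p = 5.24e-05 and 2.89e-05). The call at 4d was lost in a fit of the compared groups (-0.55, adjusted p = 0.0604). At 6d, between them, it was 9.15 and 9.33, a difference of -0.03 ± 0.10. The rises at 4h (0.41 ± 0.10, adjusted p = 0.0204) and 24h (0.42 ± 0.10, adjusted p = 0.0058) were lost without replicate 2 of time 0 (0.25 and 0.27), and also without replicate 2 of 4h (0.30) and replicate 2 of 24h (0.33).

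Among the G1/S partners in Stra8 IP, 10 of 27 rose and 3 fell at 6d, with a median of 0.23 (33.4% of all genes called at 6d). Cyclin E2 (Ccne2) rose by 2.54 ± 0.33, Rbl1, which encodes the retinoblastoma relative p107, by 1.65 ± 0.19, and E2f2 by 1.58 ± 0.23. At 12h 6 rose and 0 fell (4.59% of all genes called), among them Cdc25a, a phosphatase that activates CDKs (0.89 ± 0.13). At 4d 12 rose and 4 fell (22.3% of all genes called). Of the dividing cell markers 12 of 19 rose at 6d, of the markers of differentiating spermatogonia 8 of 12 rose, and of those of undifferentiated spermatogonia 13 of 15 fell.

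**Figure D2:**
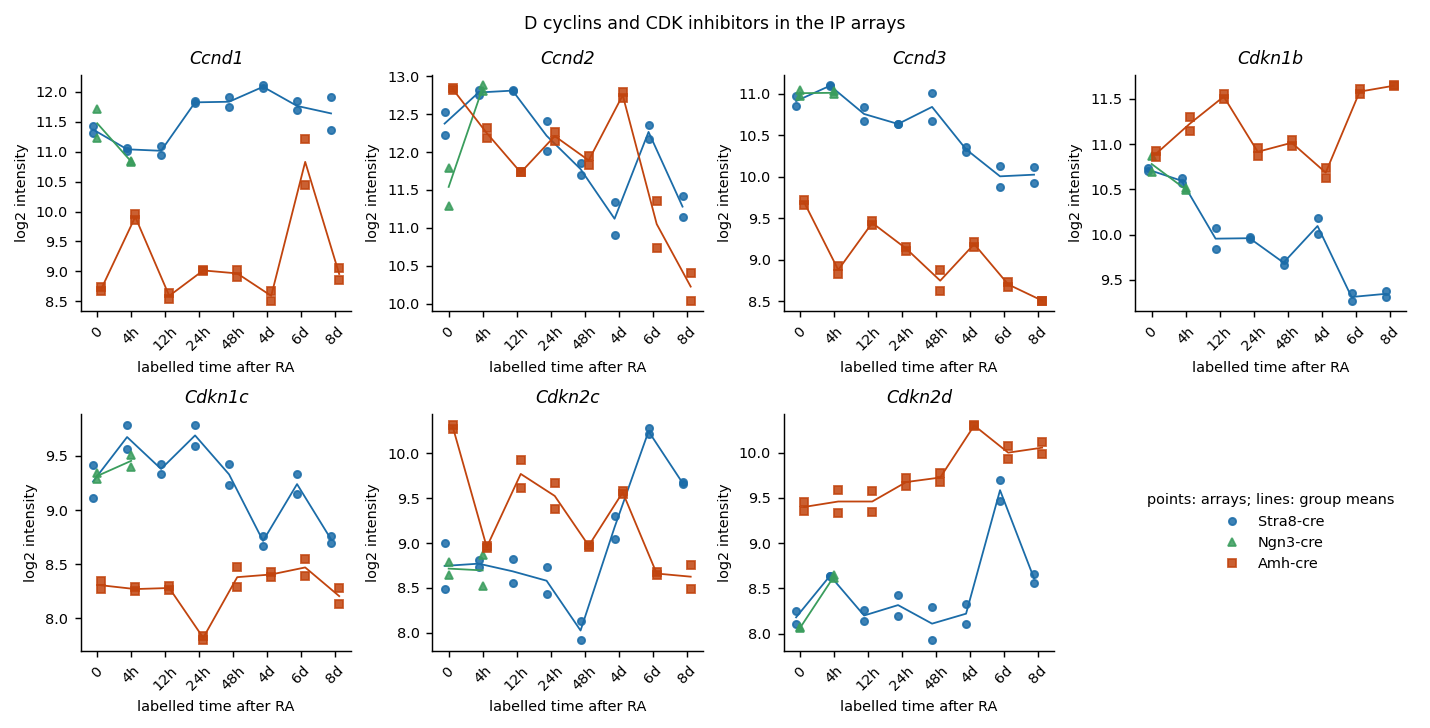
Log2 intensity of the 7 genes in the IP arrays (y axis) by labelled time after RA (x axis); circles, triangles and squares are single arrays of the Stra8, Ngn3 and Amh lines and lines join group means. Cdkn1b reaches 9.31 and 9.38 in Stra8 IP at 8d and 11.64 and 11.65 in Amh IP while at time 0 it is at 10.74 and 10.70 and at 10.86 and 10.92.

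In the Sertoli cell fraction Ccnd2, Ccnd3 and Cdkn2c fell, Cdkn2d was higher at 6d, 8d and in the arrays labelled 4d, Cdkn1b rose on its brighter probe set, and Ccnd1 peaked at 6d. All 7 genes changed in the F test over the later times of Amh IP (53.3% of all genes; 4 of 7 with a 2-fold change at some time, against 7.62%). Time by time, 5 of 7 were called in those labelled 4h (15.3% of all genes), 2 at 12h (11.9%), 3 at 24h (1.72%), 3 at 48h (9.11%), 3 in those labelled 4d (9.82%), 6 at 6d (23.1%) and 5 at 8d (28.1%). In total 27 of 49 pairs of gene and time were called, 9 higher and 18 lower, against 14.1% of pairs over all genes, and 10 of 49 with a 2-fold change, against 2.18%. The median over the 49 pairs was -0.10 and that over all genes 0.03. All 7 genes were called in the F test with the arrays of labels 4h and 4d left out too.

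Ccnd2 fell further than any other of the 7 genes in Amh IP. It had 12.84 and 12.82 at time 0, 12.18 and 12.32 in those labelled 4h, 11.73 and 11.73 at 12h, 12.15 and 12.27 at 24h, 11.83 and 11.95 at 48h, 12.71 and 12.79 in those labelled 4d, 10.74 and 11.36 at 6d, and 10.04 and 10.41 at 8d. All arrays lay below time 0, those labelled 4d only just. It fell, with changes of -1.10 ± 0.18 at 12h (adjusted p = 1.67e-05), -1.78 ± 0.18 at 6d (adjusted p = 1.03e-10) and -2.60 ± 0.18 at 8d (6.07-fold lower, adjusted p = 2.63e-16). At 4h it was -0.57 ± 0.18 (adjusted p = 0.0253), and the call was lost without either array of time 0 (-0.56 and -0.59) or of 4h (-0.51 and -0.64). At 24h it was -0.62 ± 0.18 (adjusted p = 0.0723), and passed without the Stra8 total RNA arrays labelled 4h (adjusted p = 0.0301) or the 3 arrays of narrowest range (adjusted p = 0.02). Ccnd3 had 9.66 and 9.72 at time 0, 8.93 and 8.83 in those labelled 4h, 9.47 and 9.42 at 12h, 9.11 and 9.16 at 24h, 8.62 and 8.88 at 48h, 9.16 and 9.22 in those labelled 4d, 8.74 and 8.67 at 6d, and 8.51 and 8.51 at 8d. It was lower than at time 0 at every time but 12h, where it was -0.24 ± 0.10 (adjusted p = 0.112), and fell, with changes of -1.18 ± 0.10 at 8d (2.26-fold lower, adjusted p = 9.47e-14).

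Ccnd1 had 8.74 and 8.67 in Amh IP at time 0, 9.96 and 9.86 in those labelled 4h, 11.21 and 10.45 at 6d, and between 8.51 and 9.06 in all other arrays. It was thus high in those 2 groups only, and the 2 arrays of 6d were 0.76 apart. It rose by 2.12 ± 0.29 at 6d (4.36-fold, adjusted p = 1.51e-07) and by 1.20 ± 0.29 at 4h (adjusted p = 0.00272). Ccnd1 was also high in Amh total RNA at 6d, with 11.63 and 11.25, against 10.14 and 10.15 at time 0. The mean of the germ cell markers in Amh IP was 8.75 at 6d, with 2 of 11 higher and 0 lower, and 9.02 at 8d, with 5 higher and 1 lower, against 8.52 at time 0. In the arrays labelled 4d it was 7.84, with 0 higher and 8 lower. The test called 23.1% of all genes at 6d, 28.1% at 8d and 9.82% in the arrays labelled 4d. Of the 12 markers of differentiating spermatogonia 5 were higher and 1 lower at 6d (median 0.82), and 4 higher and 1 lower at 8d (median 0.54). Their part in the changes of Ccnd1 and of the other genes in Amh IP was not tested.

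Cdkn2c had 10.32 and 10.27 in Amh IP at time 0, 8.97 and 8.94 in those labelled 4h, 9.61 and 9.93 at 12h, 9.67 and 9.38 at 24h, 8.98 and 8.96 at 48h, 9.55 and 9.58 in those labelled 4d, 8.68 and 8.64 at 6d, and 8.76 and 8.49 at 8d. All 14 later arrays lay below both of time 0. It fell, with changes of -1.33 ± 0.19 at 48h (adjusted p = 1.65e-06), -1.63 ± 0.19 at 6d (adjusted p = 3.73e-09) and -1.67 ± 0.19 at 8d (3.18-fold lower, adjusted p = 8.88e-10). At 12h it was -0.53 ± 0.19 (adjusted p = 0.0642), and passed without the Stra8 total RNA arrays labelled 4h (adjusted p = 0.0489) or the 3 arrays of narrowest range (adjusted p = 0.0141). At 24h (-0.77 ± 0.19, adjusted p = 0.0182) the call was lost without replicate 1 or 2 of time 0 (-0.75 and -0.79) or replicate 2 of 24h (-0.62), and at 4d (-0.73 ± 0.19, adjusted p = 0.00925) without either array of time 0 (-0.71 and -0.75) or of 4d (-0.72 and -0.74). Cdkn2d, the other INK4 inhibitor, had 9.35 and 9.45 at time 0, 10.31 and 10.29 in those labelled 4d, 10.07 and 9.93 at 6d, 9.99 and 10.12 at 8d, and between 9.33 and 9.77 at the other times. It rose by 0.90 ± 0.12 at 4d, 0.60 ± 0.12 at 6d and 0.66 ± 0.12 at 8d (adjusted p = 3.4e-07, 0.000111 and 1.39e-05). At 48h it was 0.32 ± 0.12 (adjusted p = 0.0787), and passed without the 3 arrays of narrowest signal range (adjusted p = 0.0386), without all arrays that stand apart (adjusted p = 0.0461) and in a fit of the compared groups (adjusted p = 0.00136). Cdkn1c kept between 7.80 and 8.55, and its only call, at 24h (-0.48 ± 0.10, adjusted p = 0.00288), was lost without replicate 2 of time 0 (-0.45) or of 24h (-0.47).

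The 2 Cdkn1b probe sets differed in the Sertoli cell fraction. The brighter one had 10.86 and 10.92 at time 0, 11.30 and 11.15 in those labelled 4h, 11.55 and 11.50 at 12h, 10.96 and 10.87 at 24h, 10.98 and 11.05 at 48h, 10.74 and 10.63 in those labelled 4d, 11.61 and 11.55 at 6d, and 11.64 and 11.65 at 8d. It rose by 0.63 ± 0.09 at 12h (adjusted p = 2.53e-07), 0.69 ± 0.09 at 6d (adjusted p = 1.39e-08) and 0.76 ± 0.09 at 8d (1.69-fold, adjusted p = 5.42e-10), and was not called at 24h, 48h or 4d. The rise at 4h (0.33 ± 0.09, adjusted p = 0.00501) was lost without replicate 1 of time 0 (0.30) or of 4h (0.25). The dimmer probe set had 8.68 and 8.60 at time 0, 9.09 and 9.22 at 12h, 9.15 and 8.79 at 6d, and 7.74 and 7.98 at 8d. It was higher at 12h and 6d without passing the test (0.52 and 0.33, adjusted p = 0.0538 and 0.187) and fell at 8d (-0.78, adjusted p = 0.000636), against the direction of the brighter set. It was also lower in the arrays labelled 4d (-0.70, adjusted p = 0.00829), as was the mean of both sets (-0.45, adjusted p = 0.00882), where the brighter set gave -0.21 ± 0.09 (adjusted p = 0.12). The mean of both sets at 8d was -0.01 (adjusted p = 0.97). The 2 sets correlated at 0.73 over the 77 arrays, at mean levels of 10.68 and 7.78, and the direction of Cdkn1b at 8d in Amh IP depends on which is read.

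**Figure D3:**
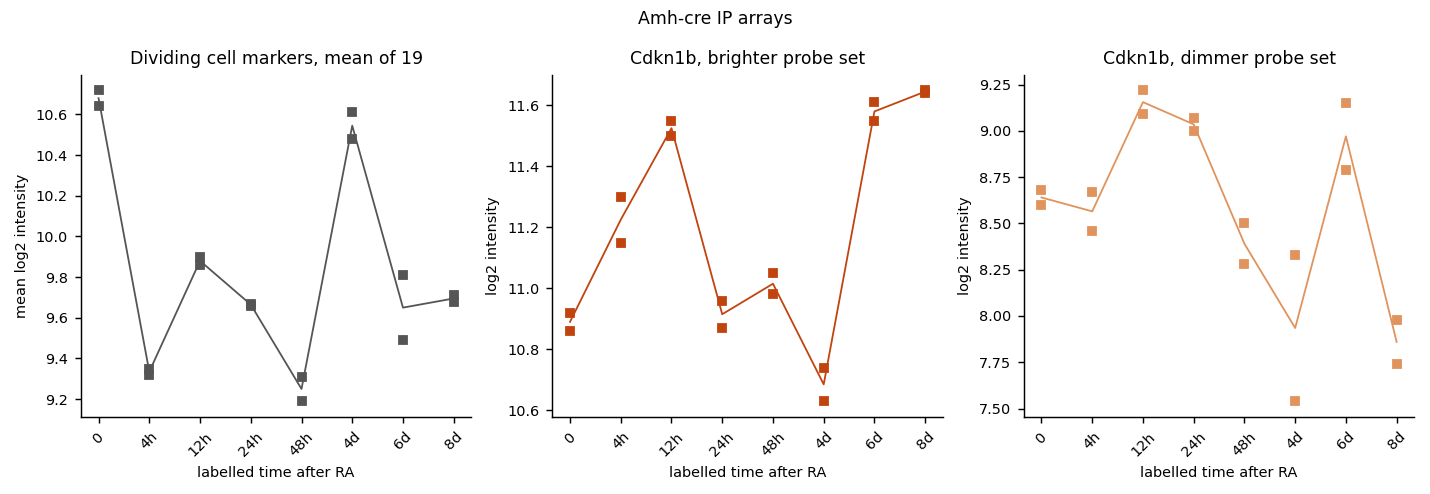
Amh IP arrays by labelled time after RA (x axis): mean log2 intensity of the 19 dividing cell markers (left) and log2 intensity of the brighter (middle) and dimmer (right) Cdkn1b probe sets; squares are single arrays and lines join group means. At 8d the brighter set is at 11.64 and 11.65 and the dimmer at 7.74 and 7.98, on opposite sides of their time 0 values.

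Markers of dividing cells fell in the same arrays. Their mean in Amh IP was 10.68 at time 0, 9.34 in those labelled 4h, 9.88 at 12h, 9.66 at 24h, 9.25 at 48h, 10.54 in those labelled 4d, 9.65 at 6d and 9.70 at 8d. Of the 19 markers 17 fell at 48h (9.11% of all genes called) and 15 at 8d (28.1%), while in those labelled 4d 4 fell and 1 rose (9.82%). Cyclin B2 (Ccnb2), a mitotic cyclin, fell, with changes of -3.64 ± 0.15 at 48h and -2.97 ± 0.15 at 8d. Of the 27 G1/S partners 11 fell and 4 rose at 8d, with cyclin A2 (Ccna2) at -2.48 ± 0.13, E2f8 at -1.99 ± 0.24 and E2f7 at -1.41 ± 0.15 among those that fell. Cdkn2b, the INK4 inhibitor p15, rose by 1.36 ± 0.20 at 8d. At 6d 13 of the 27 fell and 2 rose (23.1% of all genes called).

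**Figure D4:**
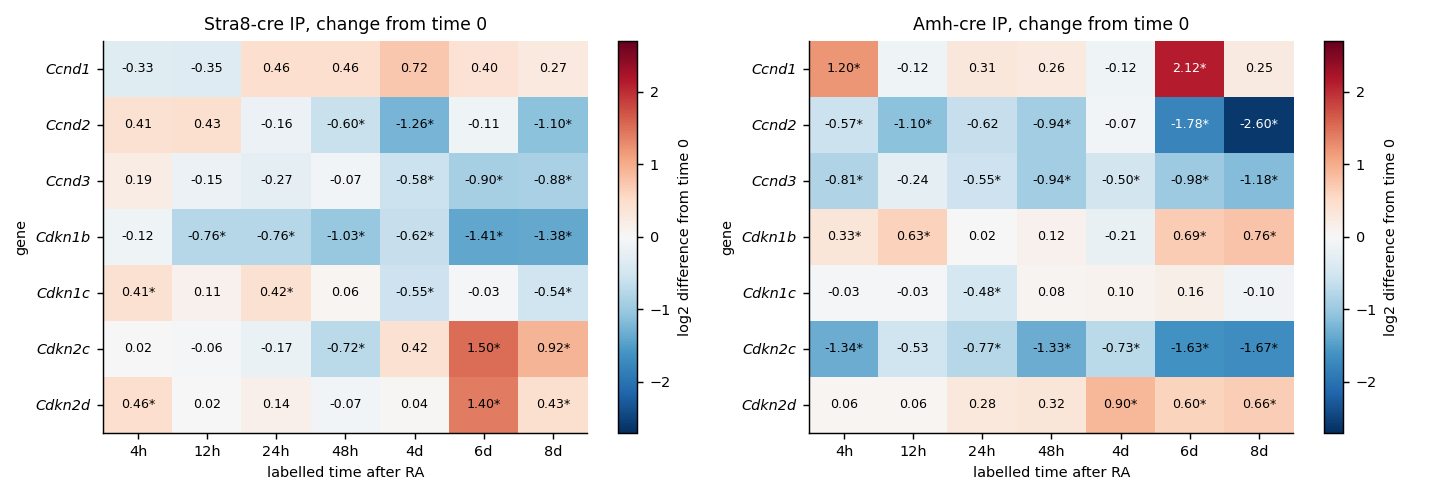
Log2 difference from time 0 for the 7 genes (rows) at each labelled time (columns) in Stra8 IP (left) and Amh IP (right); the colour and the printed number give the difference and an asterisk marks an adjusted p under 0.05 over all genes. Cdkn2c is at 1.5 in Stra8 IP and -1.63 in Amh IP at 6d, and Cdkn1b, read from its brighter probe set, at -1.38 and 0.76 at 8d.

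The change from time 0 differed between the germ cell and Sertoli cell fractions for all 7 genes (F test over the 7 interaction terms; 66.6% of all genes; 4 of 7 with a difference of at least 2-fold at some time, against 18.7%). The difference was widest for Cdkn2c, at 3.13 ± 0.27 at 6d (8.76-fold; F test adjusted p = 5.56e-14), since it rose in Stra8 IP and fell in Amh IP. For Cdkn1b it was -2.13 ± 0.12 at 8d (adjusted p = 4.63e-21), on the brighter probe set. The dimmer set was called in the F test too (adjusted p = 3.38e-09), but at 8d it fell in both fractions, with -1.43 in Stra8 IP and -0.78 in Amh IP, so the difference at 8d was far smaller on that set. For Ccnd2 it was 1.67 ± 0.26 at 6d and for Ccnd1 -1.73 ± 0.41 at 6d. The Cdkn2d difference was 0.80 ± 0.17 at 6d and -0.86 ± 0.17 at 4d, a time that rests on the Amh IP arrays labelled 4d. At the other times the Cdkn2d difference did not pass, with 0.40 at 4h and -0.39 at 48h the widest (limma adjusted p = 0.112 and 0.159). For Ccnd3 it was 1.00 ± 0.14 at 4h, a time that rests on the Amh IP arrays labelled 4h, and for Cdkn1c it was 0.91 ± 0.15 at 24h. All 7 were called with the Amh arrays of labels 4h and 4d left out as well.

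The Ngn3 line gave a second view of germ cells at 4h. In Ngn3 IP 2 of 7 genes rose at 4h (2.06% of all genes), 1 of them 2-fold (0.311% of all genes). Ccnd2 was 12.88 and 12.81 at 4h, against 11.29 and 11.79 at time 0, a rise of 1.30 ± 0.18 (2.47-fold, adjusted p = 1.5e-06). Cdkn2d was 8.62 and 8.65, against 8.07 and 8.06, a rise of 0.57 ± 0.12 (adjusted p = 0.00162). Neither pair of groups, of 2 arrays each, overlapped, which was not counted over all genes. In Ngn3 total RNA Cdkn2d was 9.11 and 8.88 at 4h, against 8.34 and 8.39 at time 0, a rise of 0.63 ± 0.12 (adjusted p = 0.000967), so whole testis changed by a like amount, and Ccnd2 was 0.17 ± 0.18 there. Ccnd1 (-0.64 ± 0.29, adjusted p = 0.45) and Cdkn1b (-0.28 ± 0.09, adjusted p = 0.0888) did not pass, and both passed (adjusted p = 0.0205 and 0.0367) when the 3 arrays of narrowest signal range, all of Stra8 total RNA, were left out of the fit. The 4h change in Stra8 IP minus that in Ngn3 IP was called for 0 of 7 genes in limma (0.00502% of all genes, 1 gene), and at an unadjusted p under 0.05 for 1 of 7 and 1991 of all genes. That 1 was Ccnd2 (-0.89 ± 0.26, adjusted p = 0.273), which passed without replicate 2 of Ngn3 IP at time 0 (-1.14, adjusted p = 0.0445).

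In total RNA, where all cell types are mixed, the 7 genes changed in both lines (F test; 65.9% of all genes in Stra8 and 54.4% in Amh), 3 of 7 at least 2-fold at some time in each (6.9% and 7.66% of all genes). Cdkn2c was called lower than at time 0 in both lines at every time measured but 6d (-0.25 in Stra8 and -0.38 in Amh). Its widest difference was at 24h, with values nearly as wide at 48h in Stra8 (-1.18) and at 8d in Amh (-1.01). Cdkn2c was 9.09, 9.14, 8.59 and 8.37 in Stra8 total RNA at 24h, against 10.10, 9.72, 10.36 and 9.84 at time 0 (-1.21 ± 0.14). In Amh total RNA it was 9.20 and 9.11 at 24h, against 10.29 and 10.12 at time 0 (-1.05 ± 0.19). Ccnd2 ended at 10.94 and 10.85 in Stra8 total RNA at 8d, against 12.45, 12.36, 12.59 and 12.33 at time 0 (-1.54 ± 0.16), and at 11.30 and 11.17 in Amh total RNA, against 12.46 and 12.46 (-1.22 ± 0.18). The groups given here, of 2 or 4 arrays, did not overlap in either gene or line, which was not counted over all genes. Ccnd3 was -0.87 ± 0.09 and -0.67 ± 0.10 at 8d. Cdkn2d reached 0.80 ± 0.10 at 6d in Stra8 and 0.72 ± 0.12 in the Amh arrays labelled 4d, whose Rarb level went against that label. In Amh at 6d Cdkn2d was 0.53 ± 0.12. Ccnd1 was widest at 4d in Stra8 total RNA (1.24 ± 0.25) and at 6d in Amh total RNA (1.29 ± 0.29), and its Stra8 arrays labelled 4h held 9.71, 11.69 and 11.73. Cdkn1b on its brighter set moved little, by at most 0.26 ± 0.07 in Stra8 (12h) and -0.24 ± 0.09 in Amh (24h), whereas its dimmer set reached -1.14 and -1.40.

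**Figure D5:**
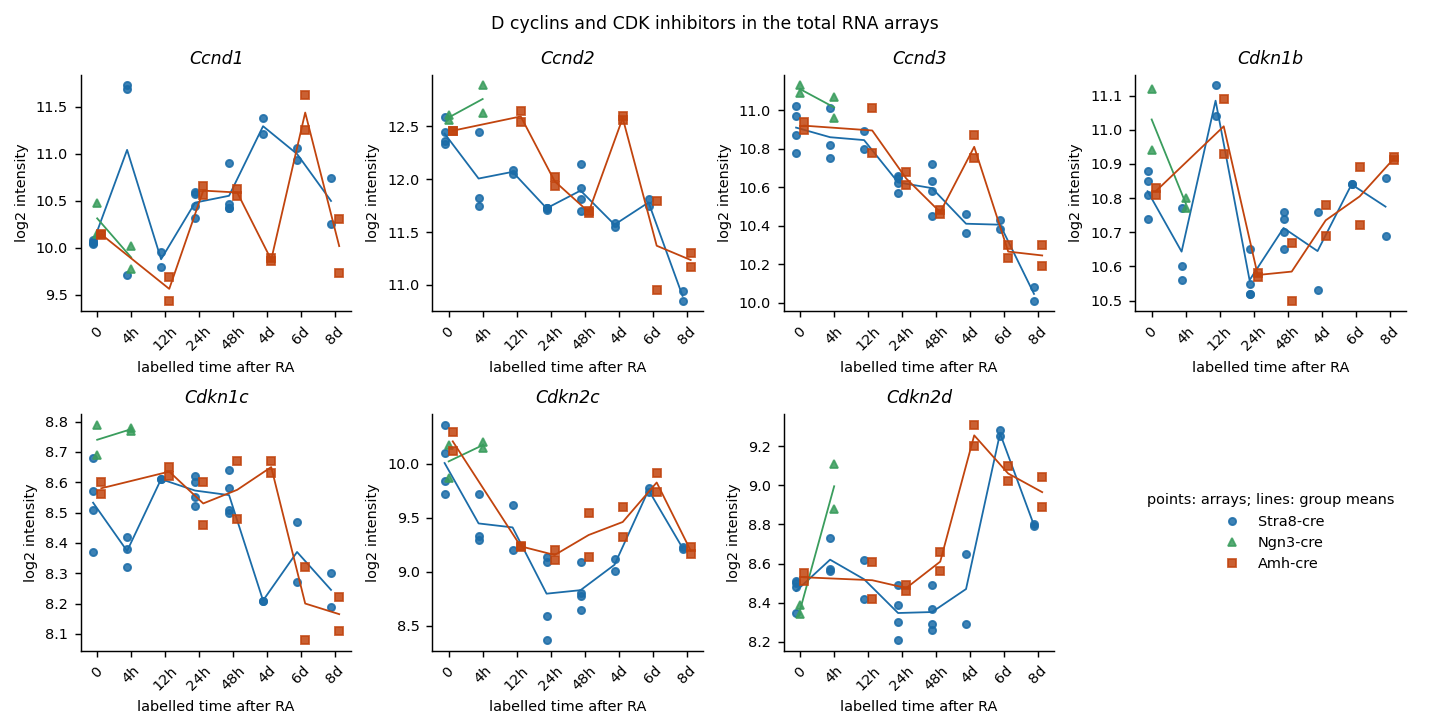
Log2 intensity of the 7 genes in the total RNA arrays (y axis) by labelled time after RA (x axis); circles, triangles and squares are single arrays of the Stra8, Ngn3 and Amh lines and lines join group means. Cdkn2c lies between 9.72 and 10.36 in all lines at time 0 and at or below 9.20 in every 24h array of both lines.

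The order of levels at time 0 over the 6 combinations of line and fraction differed between genes. Ccnd1 was highest in Ngn3 IP (11.48) and Stra8 IP (11.37), whose arrays overlapped, and lowest in Amh IP (8.71), below the 3 total RNA groups at 10.06 to 10.32. Ccnd3 had Amh IP at the bottom too (9.69), with the other 5 groups between 10.91 and 11.11. Cdkn2c had both germ cell IP groups at the bottom, Stra8 IP at 8.75 and Ngn3 IP at 8.72, whose arrays overlapped, and the other 4 groups above them, with Amh IP at 10.29 and overlapping with its neighbour. Cdkn2d stood highest in Amh IP (9.40), with no overlap with Amh total RNA (8.53). Cdkn1b differed least, between 10.72 in Stra8 IP and 11.03 in Ngn3 total RNA. For Ccnd2 Amh IP was highest (12.83) and Ngn3 IP lowest (11.54), and for Cdkn1c the germ cell IP groups were highest (9.32 in Ngn3 and 9.27 in Stra8, overlapping) and Amh IP lowest (8.30).

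Genes whose 35 group means followed those of a member most closely, by Pearson's correlation, were Them6 (0.927), Tlcd4 (0.924) and Cyria (0.920) for Ccnd1, and Dlk1 (0.959), Cd24a (0.953) and Tns2 (0.951) for Ccnd3. For Cdkn1b they were Gabarapl1 (0.943), Mbnl2 (0.915) and Lasp1 (0.908), for Cdkn1c Slc38a3 (0.959), Oasl1 and Rhoh (0.941 each), and for Cdkn2d Dnmbp (0.932), Dcaf5 (0.931) and Bloc1s4 (0.913). Ccnd2 and Cdkn2c had no such close companions, with Tmem184b (0.810), Tpst2 (0.804) and Cyp4f16 (0.800) for Ccnd2 and Dap (0.811), Tstd3 (0.811) and Cntln (0.797) for Cdkn2c. These are descriptions over 35 groups that share lines, fractions and arrays.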

How the data were processed

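RNA from RiboTag pulldowns (IP) and from whole testis (total RNA) was measured on 77 microarrays in 35 groups of line, fraction and time. The values are the intensities deposited by the authors, summarised with RMA per the submitters' processing notes. No scanner files were used here. Log2 of the intensity was taken here with no further scaling. Of 28853 probe sets, 21789 are listed with 1 gene, 1621 with several and 5443 are not listed. Each of the 19938 genes was read from its brightest probe set.

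One linear model over all 77 arrays, with a mean for each group, was fitted with limma 3.58.1 in R 4.3.3 (lmFit and eBayes), with p-values adjusted over all genes by the Benjamini-Hochberg method at 0.05. Errors are standard errors of that fit unless stated. IP and total RNA were compared over the times both have. The scripts were tested on simulated data. The 8 genes and the lists were chosen with earlier results of these data known. All 8 genes are named, with at most 4 called G1/S partners per comparison, at most 2 called genes of each marker list, and for each gene the 3 genes with the most similar group means. The replicate numbers of the labels were checked for pairing: deviations of IP and total RNA arrays with the same number correlated over 0.1 in 7 of 7 Amh pairs (0.12 to 0.57), 2 of 2 Ngn3 pairs and 4 of 8 Stra8 pairs. Alternatives were a 2-fold minimum, a filter on low genes, median centring, quantile normalisation, the mean of probe sets, the replicate block, fits of only the groups compared, and the omission of single arrays. The other Cdkn1b probe set and the omission of arrays that stand apart were chosen after seeing the data. The number of arrays limits the precision.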

Additional observations from a re-analysis of the deposited data

Results flagged for a closer look

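In all 7 genes the change from time 0 in Stra8 IP differed from that in Amh IP (limma's F test over the interaction terms). That test called 66.6% of all genes. The widest difference at any time was -1.73 for Ccnd1 at 6d, 1.67 for Ccnd2 at 6d, 1.00 for Ccnd3 at 4h, -2.13 for Cdkn1b at 8d, 0.91 for Cdkn1c at 24h, 3.13 for Cdkn2c at 6d and -0.86 for Cdkn2d at 4d. The Cdkn1b value is that of the brighter probe set. The dimmer set fell at 8d in both, with -1.43 in Stra8 IP and -0.78 in Amh IP. The values for Ccnd3 and Cdkn2d rest on Amh arrays labelled 4h and 4d.

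The 7 genes were tested in the 3 groups of 4 arrays, 21 tests in all, and in 2 of them 1 array was flagged as apart from the other 3, where chance gives about 1 in 20. Ccnd2 was 11.71 in 1 Stra8 total RNA array at 24h, against 11.73 in each of the others. The test used values rounded to 2 decimals, and the equal values fixed this flag in advance. The SD of that group was 0.011, so no array stands out there. Ccnd1 was 10.90 in replicate 2 of Stra8 total RNA at 48h, against 10.43, 10.47 and 10.42.

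The probe set listed with 4930567H12Rik and Cdkn1a, which no comparison uses, was 10.93 and 11.57 in Amh IP at 8d and 9.32 and 11.61 at 6d, against 8.00 and 8.11 at time 0. The arrays of 6d and 8d all lay above those of time 0, and those of 6d were far apart. In Stra8 IP it was 8.38 and 8.68 at 8d, against 9.70 and 9.38 at time 0. Which of the 2 genes it reads cannot be told apart.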

How the results depend on the processing

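Of 2000 values recomputed under the alternatives, 1836 kept their side of the threshold, 98 lost the call, 62 gained it and 4 reversed. Of 2170 with 1 array left out these numbers were 2108, 55, 7 and 0. Reversed means a change of sign with a call before or after. Changes of sign without a call, and those in the F tests, were counted only by their side of the threshold. An example is the Amh IP course of Cdkn1b, at 0.76 on the brighter set and -0.78 on the other. A 2-fold minimum left 0 genes called in Stra8 IP against total RNA, 2 in Ngn3, 3 in Amh, 4 in Stra8 IP against Amh IP and 0 between totals. It left 7 and 10 pairs of gene and time in Stra8 and Amh IP, 1 gene in Ngn3 IP at 4h, 4 in each IP course, 3 in each total RNA course and 4 in the difference in response. Between totals 0 genes were called with the Amh arrays of labels 4h and 4d left out, and 0 without all arrays that stand apart (limma). Ngn3 IP at 4h had 4 calls without the 3 arrays of narrowest signal range and 4 without all that stand apart. With 1 array left out the calls ranged between 1 and 3 for totals, 0 and 1 for the Stra8 minus Ngn3 response, 17 and 22 for Stra8 IP times, 23 and 27 for Amh IP times, and 5 and 7 for Amh IP against total RNA. Cdkn1b in Amh IP at 8d reversed to -0.01 with the mean of its probe sets and -0.78 with the other set, which also gave -0.07 at 4h and 0.10 in Ngn3 IP against total RNA. The replicate block gave 19 more calls and ended 7. The paired value for Cdkn2c in Amh IP against total RNA was -0.15 (adjusted p = 0.00225). In Stra8 IP, where the numbers were not borne out as pairs, the block ended calls of Cdkn1c and Cdkn2d at 4h and of Ccnd3, Cdkn1b and Cdkn1c at 4d. It also ended the Stra8 total RNA course calls of Ccnd1 (adjusted p = 0.0508) and Cdkn1c (adjusted p = 0.0936). Fits of the compared groups only gave 14 more calls and ended 5, those of Cdkn2c between totals, Cdkn1c and Cdkn2d at 4h, and Cdkn1c at 24h and 4d in Stra8 IP. The causes were not tested.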

Other observations

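Markers of spermatogonial state moved in Stra8 IP beside the cell-cycle genes. Of 15 markers of undifferentiated spermatogonia 6 were lower at 12h, 10 at 24h, 12 at 48h and 14 at 4d than at time 0, with median changes of -0.38, -0.56, -0.69 and -1.17. The test called 4.59%, 6.47%, 11.9% and 22.3% of all genes at these times. Of 12 markers of differentiating spermatogonia 8 were higher and 1 lower at 6d, with a median change of 1.96 (33.4% of all genes called). At 8d 7 were higher and 3 lower (34.3%). The 14 Sertoli cell markers in Amh IP changed little, with 1 higher and 1 lower at 8d (28.1% of all genes called).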
